A study of Mus musculus with 27 samples.

Results

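The core circadian clock loop of mouse liver was described through 10 genes, *Arntl*, *Clock*, *Npas2*, *Per1*, *Per2*, *Per3*, *Cry1*, *Cry2*, *Nr1d1* and *Nr1d2*, of 17655 genes listed in the deposited tables. They were chosen by name, as the transcription factors and repressors of the loop, with earlier results of these data known. Every one was listed in every library and passed the filter on low counts in every comparison. RNA of whole liver was sequenced in 27 mice, 3 in each of 9 groups, all of genotype Kdm5b fl/fl. WT mice carried a control vector (AAV8-control in WDA, AAV-control in Res), KO mice received AAV8-CMV-Cre (AAV-CMV-Cre in the labels of Res), whose promoter is not restricted to a cell type, and HepKO mice received AAV8-TBG-Cre, whose promoter is directed to hepatocytes. Females of all 3 kinds, and WT and KO males, were studied during feeding of a Western diet plus alcohol given as drink (WDA). WT and KO mice of both sexes were studied in resolution (Res), after 4 weeks back on chow and plain water. By the labels, feeding had lasted 8 weeks in the former and 16 weeks, before resolution began, in the latter. The study's methods describe a longer feeding than the labels of the WDA libraries, so the length of feeding behind the WDA groups is uncertain. The labels name the vector before the feeding in WDA libraries, and between feeding and resolution in Res libraries. The WDA libraries all belong to experiment 11 and the Res libraries all to experiment 12. Stage, length of feeding, diet at collection, order of vector and feeding, and experiment therefore cannot be told apart. The time of day of collection is not given in the sources used here.

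In the clock of liver cells, ARNTL (also called BMAL1) pairs with CLOCK or with its relative NPAS2 and switches on genes that carry an E-box, among them the *Per*, *Cry* and *Nr1d* genes. PER and CRY proteins return to the nucleus and repress that pair. The nuclear receptors REV-ERBα and REV-ERBβ, encoded by *Nr1d1* and *Nr1d2*, repress *Arntl*, *Npas2* and *Cry1*, so that in mouse liver *Arntl* and *Npas2* transcripts peak at about the time when *Nr1d1* and *Nr1d2* are low. Feeding time is a strong setter of this clock in liver, and *Per1* also answers directly to glucocorticoids.

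The upstream sequences show which of these inputs have a short motif close to an annotated start, and 5 of the genes whose window held a match are printed. The letters are the bases before the start in GRCm38.p6, from RefSeq, and they stop short of annotated exons. Capitals mark an E-box (CACGTG), an E'-box (CACGTT, printed as AACGTG on the other strand), the REV-ERB half-site (AGGTCA, or TGACCT on the other strand) or a D-box (TTATGNAA).
*Cry1*, chr10:85185065-85185304, minus strand: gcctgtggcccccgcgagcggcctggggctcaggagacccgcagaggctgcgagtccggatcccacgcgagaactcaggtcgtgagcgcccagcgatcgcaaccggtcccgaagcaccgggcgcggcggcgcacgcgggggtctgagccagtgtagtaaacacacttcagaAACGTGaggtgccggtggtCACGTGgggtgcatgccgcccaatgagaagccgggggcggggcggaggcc
*Per1*, chr11:69098699-69098947, plus strand: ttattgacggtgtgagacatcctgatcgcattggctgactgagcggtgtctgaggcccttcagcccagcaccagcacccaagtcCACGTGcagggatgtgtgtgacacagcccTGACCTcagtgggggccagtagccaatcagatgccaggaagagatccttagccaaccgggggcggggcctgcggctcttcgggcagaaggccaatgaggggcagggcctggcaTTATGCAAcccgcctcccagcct
*Per3*, chr4:151044666-151044915, minus strand: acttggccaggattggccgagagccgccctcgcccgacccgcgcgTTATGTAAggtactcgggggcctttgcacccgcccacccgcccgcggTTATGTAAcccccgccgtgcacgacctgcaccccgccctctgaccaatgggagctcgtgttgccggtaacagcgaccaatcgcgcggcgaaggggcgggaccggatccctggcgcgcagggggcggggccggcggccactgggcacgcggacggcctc
*Nr1d1*, chr11:98775378-98775627, minus strand: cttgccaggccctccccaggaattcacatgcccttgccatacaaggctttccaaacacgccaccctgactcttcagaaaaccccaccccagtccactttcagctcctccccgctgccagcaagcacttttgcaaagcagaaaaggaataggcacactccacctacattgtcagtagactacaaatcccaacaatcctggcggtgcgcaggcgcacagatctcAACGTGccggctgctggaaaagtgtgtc
*Nr1d2*, chr14:18239128-18239356, minus strand: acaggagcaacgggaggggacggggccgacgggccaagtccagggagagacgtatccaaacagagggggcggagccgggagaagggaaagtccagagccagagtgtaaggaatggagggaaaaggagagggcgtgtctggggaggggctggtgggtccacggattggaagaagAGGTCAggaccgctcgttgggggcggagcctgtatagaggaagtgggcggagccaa

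Of the 10 genes, 9 had at least 1 annotated start in the promoter table (13 starts in all, *Per2* not among them), and 7 held at least 1 of the motifs searched, including the CRE (TGACGTCA), in the 250 bases before a start. *Arntl* and *Npas2* held none. An E-box stood before *Cry1* and before 1 start of *Per1*, and E-boxes were present in 6.02% of the 32851 promoters of the table. An E'-box stood before *Cry1*, *Cry2* and *Nr1d1*, against 3.85% of all promoters. The half-site stood before *Nr1d2*, *Per1* and 1 start of *Clock*, against 14% of all promoters. A D-box stood before *Per1* and in 2 copies before *Per3*, against 3.07%, and no CRE was found before these starts, against 1.55%. Motifs were searched on both strands, the matches are descriptions of letters, and regulatory sites outside this window were not searched.

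Total counts per library ranged from 14634590 to 19388265, and the 10 genes had between 11 (*Npas2*, a WT WDA male) and 2701 (*Nr1d1*, a HepKO female) counts in a library. Markers of hepatocytes were high in every library, and no defining marker of the cell type lists was at 0 in a group. Summed markers of cholangiocytes exceeded 100 CPM (TMM-scaled counts relative to library size) in 6 libraries, which were KO WDA males 17 and 18, WT WDA female 7, WT Res female 13, KO Res male 5 and WT Res male 9, with 105 to 527 CPM, and stood at or below 72.2 CPM in the other 21. The targeted gene, *Kdm5b*, did not pass the edgeR test in any comparison of a Cre group with WT. Its mean ± SD (n = 3) in WT and KO was 26.0 ± 4.94 and 18.1 ± 5.20 CPM in WDA females, 24.3 ± 0.709 and 21.5 ± 0.789 CPM in WDA males, 17.1 ± 0.442 and 12.0 ± 1.26 CPM in Res females, and 19.3 ± 0.451 and 12.6 ± 4.62 CPM in Res males. In HepKO females it was 13.3 ± 4.63 CPM, and DESeq2 called *Kdm5b* in Res females (adjusted p = 0.0491). In whole liver, fewer cells of a type and less RNA per cell cannot be told apart.

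Compared per length (FPKM, the authors' values), *Nr1d1* had the highest median over the 27 libraries, 18.8, followed by *Arntl* (9.21), *Nr1d2* (9.11), *Clock* (8.16), *Cry2* (7.15), *Per1* (6.45), *Cry1* (4.59), *Npas2* (1.85), *Per2* (1.55) and *Per3* (0.84). The genes differed far more in how much they moved. *Clock* ranged 1.67-fold over all libraries, from 53.1 to 88.6 CPM, and *Cry2* 2.82-fold. *Npas2* ranged 27.9-fold, from 0.689 to 19.2 CPM, *Nr1d1* 16.9-fold, from 8.95 to 150.9 CPM, *Per1* 11.0-fold and *Per3* 10.5-fold. In the plot of levels by library, the dashed line separates WDA on the left from Res on the right.

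**Figure D1:**
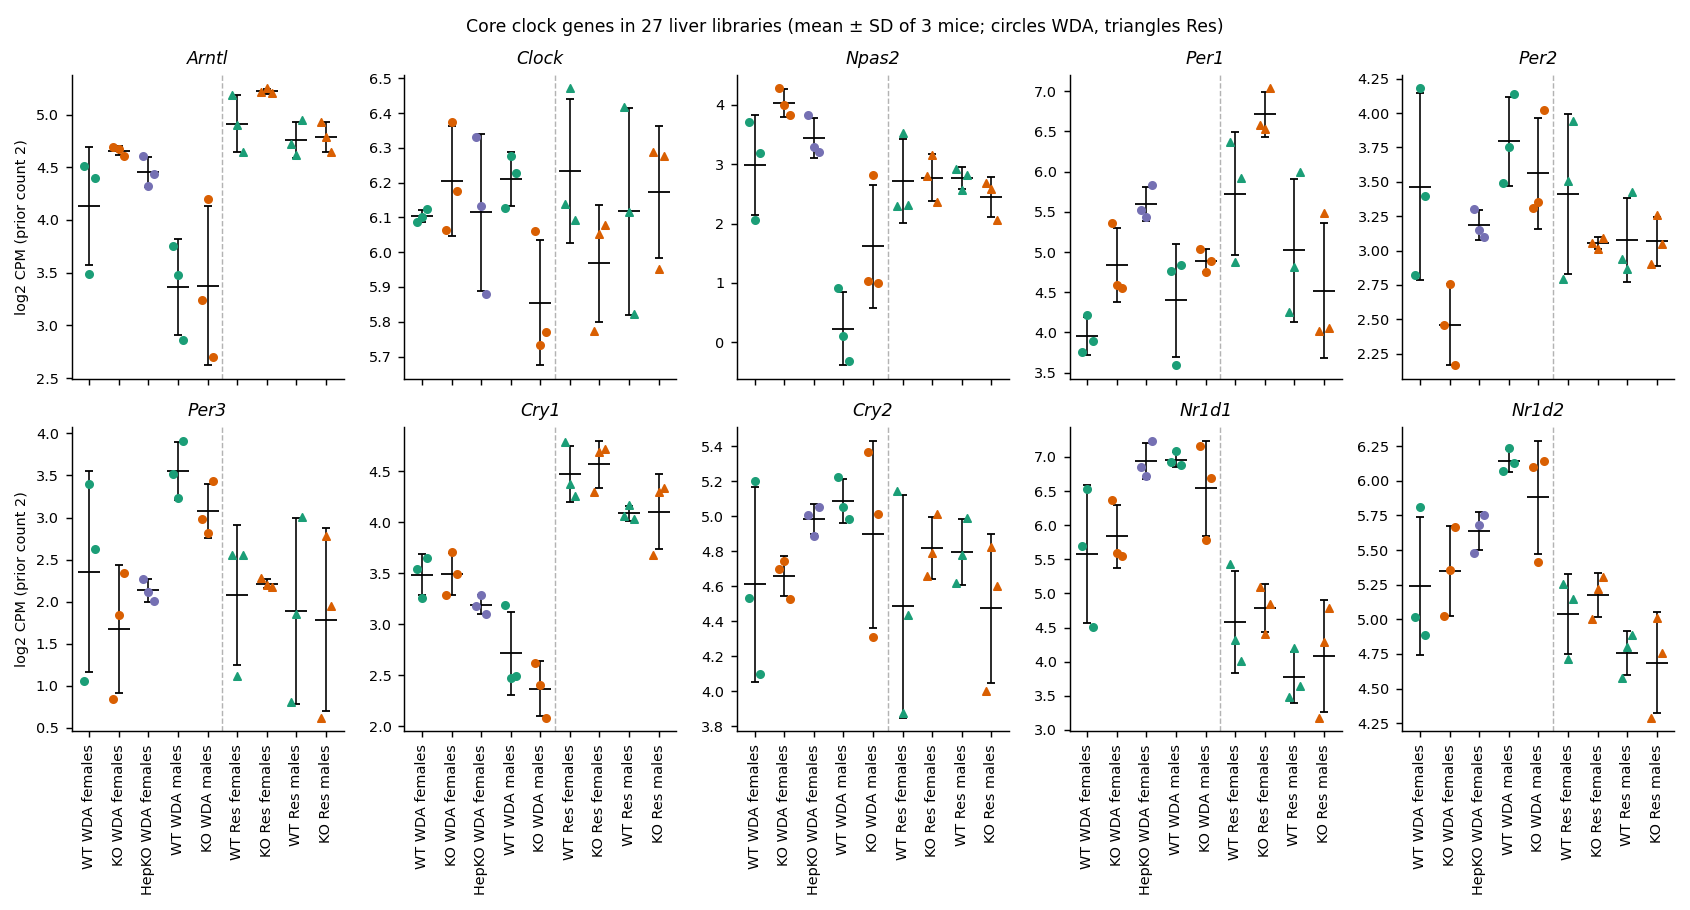
Level of each gene in every library (log2 CPM, own axis for each gene) by group, with the mean and SD of 3 mice; circles are WDA and triangles Res libraries, green WT, orange KO and violet HepKO. *Cry1* lies higher to the right of the dashed line (Res) in each stratum, from 12.7 to 27.5 CPM against 4.13 to 12.95 CPM, and *Npas2* is lowest in WDA males.

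Resolution was compared with WDA in 4 strata, to ask how the loop differed after alcohol and the diet were withdrawn. *Arntl* and *Cry1*, an activator and a repressor, were higher and *Nr1d1* was lower in Res in all 4 strata, and these differences passed the test in WT males and KO females. In WT males, *Arntl*, *Npas2* and *Cry1* rose and *Nr1d1* and *Nr1d2* fell. In KO females, *Arntl*, *Cry1*, *Per1* and *Per2* rose and *Npas2* and *Nr1d1* fell, so *Npas2* moved the opposite way to WT males. These strata differ in both sex and vector, and the difference between them was not tested. Mean *Npas2* in WDA and Res was 8.65 and 7.01 CPM in WT females, and 3.58 and 5.43 CPM in KO males. The stages overlapped in both, and neither difference was called. Some markers of cell types also differed with stage in the same libraries. Of 5 blood and immune markers 4 rose in WT males, with a summed level of 12.7 to 15.3 CPM in WDA and 19.3 to 29.3 CPM in Res, and 3 of the 4 tested rose in KO females (15.3 to 22.1 against 30.5 to 51.4 CPM). In KO females 2 of 6 hepatocyte markers also rose (summed level 86750 to 107700 CPM in WDA and 142200 to 169400 CPM in Res), as did 2 of 7 markers of Kupffer cells and macrophages (289 to 418 against 394 to 561 CPM) and 1 of 3 erythroid markers. In WT males 1 of 5 sinusoidal endothelial markers and 1 of 3 tested cholangiocyte markers rose. Of all genes tested, 11.0% were called in WT males and 20.4% in KO females, counting both directions. Beside these shares, counts in such short lists say little outside the blood and immune markers. The part of these markers in the clock differences was not tested.

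In WT males, *Nr1d1* stood at 121, 136 and 118 CPM in WDA and at 11.1, 18.2 and 12.3 CPM in Res. The groups were far apart, and the log2 fold change was -3.15 ± 0.18 (SE; edgeR quasi-likelihood test, adjusted p = 0.000367), an 8.89-fold difference. Its relative *Nr1d2* stood at 67.2, 75.4 and 69.9 CPM in WDA and at 23.8, 27.8 and 29.5 CPM in Res (log2 fold change -1.37 ± 0.11, adjusted p = 0.0015). *Npas2*, the partner of ARNTL that can replace CLOCK, stood at 1.76, 0.968 and 0.689 CPM in WDA and at 7.43, 5.81 and 6.94 CPM in Res (2.57 ± 0.32, adjusted p = 0.00563). *Arntl* stood at 13.4, 11.1 and 7.15 CPM in WDA and at 26.2, 24.4 and 30.8 CPM in Res (1.38 ± 0.22, adjusted p = 0.0112). *Cry1* stood at 9.0, 5.45 and 5.52 CPM in WDA and at 16.6, 17.9 and 16.3 CPM in Res (1.36 ± 0.20, adjusted p = 0.00944). All 5 genes separated the groups without overlap. *Per2* (log2 fold change -0.70 ± 0.22, adjusted p = 0.0732) and *Per3* (-1.40 ± 0.47, adjusted p = 0.0888) missed the threshold, although in WT males *Per2* separated the groups and *Per3* did too, and DESeq2 called both (adjusted p = 0.0312 and 0.0107). *Clock*, *Cry2* and *Per1* had log2 fold changes of -0.06 ± 0.14, -0.27 ± 0.13 and 0.75 ± 0.47. In this comparison 5 of 10 genes were called against 11.0% of the 12408 genes tested, and 7 of 10 separated the groups against 36.0%. Leaving out WT WDA male 20 took *Arntl* to an adjusted p of 0.0511 and leaving out WT WDA male 21 took *Cry1* to 0.0544. With the library of WT Res male 9 left out, the only one of the 6 in these groups, 7 of the 10 genes were called. Calls over all genes rose as well, from 1360 to 1690.

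In KO females, *Per1*, an early-response repressor gene, stood at 41.1, 23.9 and 23.4 CPM in WDA and at 95.6, 92.1 and 131 CPM in Res (log2 fold change 1.85 ± 0.23, adjusted p = 0.00162). *Cry1* stood at 9.67, 12.95 and 11.1 CPM in WDA and at 19.6, 25.7 and 26.3 CPM in Res (1.08 ± 0.16, adjusted p = 0.00328). *Arntl* stood at 25.7, 25.4 and 24.3 CPM in WDA and at 37.0, 37.9 and 36.7 CPM in Res (0.57 ± 0.10, adjusted p = 0.0064). These 3 genes were higher in every Res library. *Npas2* stood at 19.2, 15.8 and 14.1 CPM in WDA and at 6.87, 8.76 and 5.06 CPM in Res (-1.25 ± 0.21, adjusted p = 0.00471). *Nr1d1* stood at 82.7, 48.0 and 46.9 CPM in WDA and at 34.2, 21.2 and 28.7 CPM in Res (-1.08 ± 0.24, adjusted p = 0.0146). *Per2* was close to the threshold (0.58 ± 0.18, adjusted p = 0.0497) and was lost when any 1 of 5 of the 6 mice was left out, and *Nr1d1* was lost without KO Res female 4 (adjusted p = 0.0534). *Per3*, *Nr1d2*, *Clock* and *Cry2* had log2 fold changes of 0.43 ± 0.32, -0.19 ± 0.16, -0.24 ± 0.13 and 0.17 ± 0.13. In KO females 6 of 10 genes were called against 20.4% of the 12470 genes tested, and 6 separated the groups against 40.4%. With a spread shared by all 9 groups, 2 of the 10 genes were called, and 1558 genes in all against 2550 in the main fit.

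In WT females and KO males no gene of the 12604 and 12747 tested was called by edgeR (0.0% in both), with 1717 and 819 genes at an unadjusted p under 0.05, and DESeq2 called 403 and 79. In WT females *Per1* stood at 13.4, 18.5 and 14.8 CPM in WDA and at 82.8, 29.3 and 60.3 CPM in Res (log2 fold change 1.89 ± 0.36, adjusted p = 0.194). *Cry1* (1.003 ± 0.19, adjusted p = 0.189) and *Arntl* (0.73 ± 0.29, adjusted p = 0.346) were higher in every Res library, and 3 of 10 genes separated these groups against 20.4% of genes. *Nr1d1* stood at 51.9, 92.3 and 22.8 CPM in WDA and at 43.1, 19.8 and 16.0 CPM in Res, so the groups overlapped (-1.08 ± 0.56, adjusted p = 0.448). In KO males *Cry1* stood at 6.05, 5.17 and 4.13 CPM in WDA and at 12.7, 19.5 and 20.2 CPM in Res (1.78 ± 0.24, adjusted p = 0.186). *Nr1d1* (-2.42 ± 0.48, adjusted p = 0.406), *Nr1d2* (-1.20 ± 0.26, adjusted p = 0.487) and *Arntl* (1.30 ± 0.35, adjusted p = 0.621) also separated the groups, as 6 of 10 genes did against 12.9% of genes. In KO males the WDA libraries 17 and 18 and the Res library 5 belonged to the 6 with high cholangiocyte markers. Without the 6 libraries, which leaves 1 WDA library whose spread is assumed to be like that of the others, *Nr1d1* (-2.96 ± 0.43, adjusted p = 0.000283) and *Nr1d2* (-1.55 ± 0.33, adjusted p = 0.0299) were called in KO males. Without only the 5 above 150 CPM none was called there, and in WT females none was called either way.

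**Figure D2:**
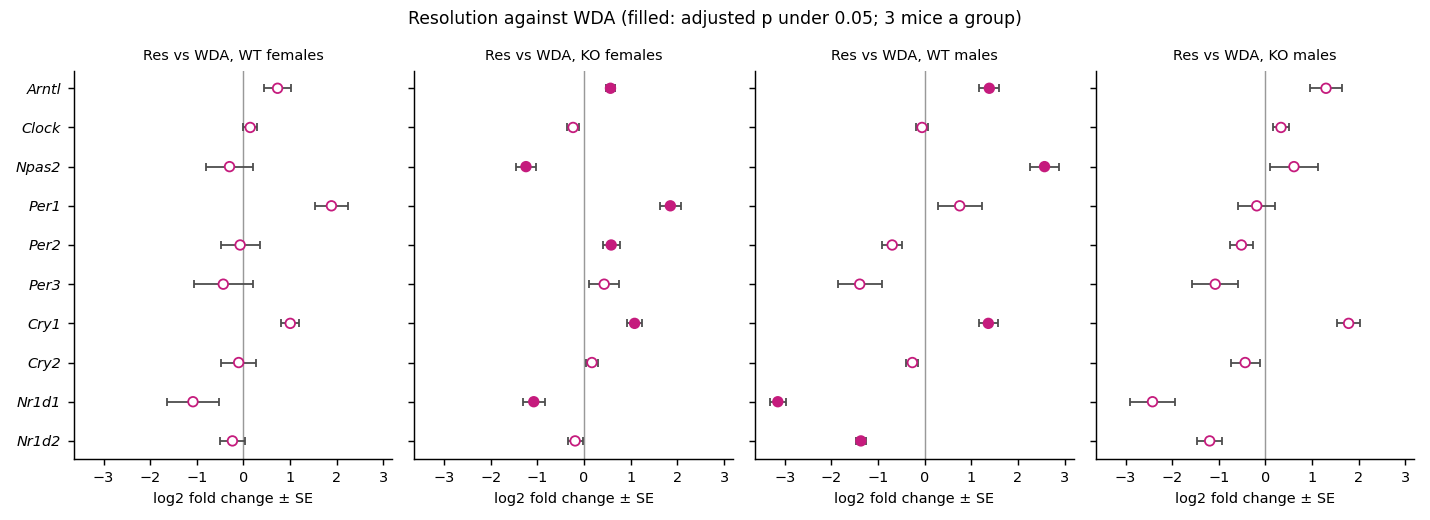
Log2 fold change of Res against WDA with its SE for the 10 genes in WT females, KO females, WT males and KO males, with filled points past an adjusted p of 0.05. *Arntl* and *Cry1* lie to the right of 0 and *Nr1d1* to the left in all 4 panels, and *Npas2* lies at 2.57 in WT males and -1.25 in KO females.

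The size of the stage difference was also set between the sexes in WT mice, as an interaction. For *Npas2* the difference in females minus that in males was -2.85 ± 0.67 on the log2 scale, for *Nr1d1* 2.09 ± 0.65 and for *Nr1d2* 1.15 ± 0.32, and none of the 3 passed the test (adjusted p = 0.307, 0.491 and 0.438; 0.0076% of 13152 genes were called). DESeq2 gave *Npas2* an adjusted p of 0.0103. The interactions of KO with stage, in females and in males, and of KO with sex, in WDA and in Res, called no gene of the loop and no gene in all (0.0%; 803, 423, 1470 and 1512 genes at an unadjusted p under 0.05, and 1, 1, 10 and 85 called by DESeq2).

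Among WT mice on WDA, males and females differed most in *Npas2*, which stood at 12.9, 4.07 and 8.98 CPM in females and at 1.76, 0.968 and 0.689 CPM in males. No male reached the lowest female, and the log2 fold change of males against females was -2.92 ± 0.53 (adjusted p = 0.0754). It was called by DESeq2 (adjusted p = 9.16e-06) and without the 6 libraries (-2.87 ± 0.52, adjusted p = 0.0116). In this comparison the latter fit left out only WT WDA female 7. Both settings also called more genes in all, 548 with DESeq2 and 1039 without that mouse, against 105 in the main fit. *Nr1d1* (1.16 ± 0.45, adjusted p = 0.322) and *Nr1d2* (0.85 ± 0.25, adjusted p = 0.217) were higher in every WDA male than in any WDA female, and *Cry1* was lower (-0.76 ± 0.24, adjusted p = 0.249). No gene of the loop was called against 0.851% of the 12333 genes tested, and 5 of 10 separated the sexes against 24.4%. After resolution the same comparison gave -0.08 ± 0.36 for *Npas2* and -0.93 ± 0.37 for *Nr1d1*, no call against 0.545% of genes, and 1 gene, *Cry1*, without overlap (-0.42 ± 0.16, adjusted p = 0.487) against 15.4%.

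The vectors were compared to ask whether removal of *Kdm5b*, a histone H3 lysine demethylase, went with a difference in the clock genes. No gene of the loop passed the test for KO against WT in any of the 4 strata, and no gene of the whole table did (0.0% in WDA females, WDA males, Res females and Res males; 385, 958, 2413 and 183 genes at an unadjusted p under 0.05; DESeq2 called 8, 17, 634 and 7). In WDA females *Per1* stood at 13.4, 18.5 and 14.8 CPM in WT and at 41.1, 23.9 and 23.4 CPM in KO (log2 fold change 0.90 ± 0.25, adjusted p = 0.978). *Per2*, another repressor, stood at 6.95, 18 and 10.4 CPM in WT and at 5.39, 6.64 and 4.37 CPM in KO (-1.12 ± 0.36, adjusted p = 0.978). With *Arntl* (0.44 ± 0.26) and *Npas2* (0.90 ± 0.38), 4 of 10 genes separated these groups against 8.81% of genes. Without WT female 7, 1 of the 6 libraries, the log2 fold changes were 0.89 for *Per1*, -1.19 for *Per2*, 0.57 for *Arntl* and 0.95 for *Npas2*, and none passed. WT female 6 had the lowest *Arntl* (11.1 CPM) and *Npas2* (4.07 CPM) and the highest *Per2* of its group. Over the 6 fits that each left out 1 mouse, the log2 fold change of *Arntl* ranged from 0.18 to 0.62. In WDA males 2 of 10 did so against 16.3%, *Clock* (-0.34 ± 0.12, adjusted p = 0.588) and *Npas2*, which stood at 1.94, 6.91 and 1.88 CPM in KO, the 6.91 being that of KO male 17, with 527 CPM of cholangiocyte markers. Without that mouse the KO values of *Npas2* were 1.94 and 1.88 CPM (33 and 31 counts). The highest WT value was 1.76 CPM (29 counts), so the groups were then barely apart. In Res females 3 of 10 separated the groups against 26.2%, with *Per1* at 82.8, 29.3 and 60.3 CPM in WT and at 95.6, 92.1 and 131 CPM in KO (0.85 ± 0.33, adjusted p = 0.221). In Res males none did, against 4.64%. Fits of both sexes together, with sex as a covariate, called no gene in WDA or in Res (0.0%; 376 and 1035 genes at an unadjusted p under 0.05; DESeq2 called 4 and 6).

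HepKO females on WDA had the highest *Nr1d1* among the female groups. It stood at 115, 106 and 151 CPM, against 51.9, 92.3 and 22.8 CPM in WT and 82.7, 48.0 and 46.9 CPM in KO, and every HepKO library was above all of these. The log2 fold change was 1.16 ± 0.46 against WT (adjusted p = 0.478) and 1.06 ± 0.23 against KO (adjusted p = 0.441 with edgeR and 0.00114 with DESeq2). *Per1* stood at 45.8, 43.0 and 57.0 CPM in HepKO and was 3.11-fold higher than in WT (1.64 ± 0.17, adjusted p = 0.0545 with edgeR and 5.53e-12 with DESeq2). Of the 6 fits that left out a mouse, *Per1* passed the edgeR test in 1, that without WT female 7, 1 of the 6 libraries (adjusted p = 0.00235). That fit called 349 genes in all, against 0 in the main fit. Without HepKO female 14 the adjusted p of *Per1* was 0.405. *Per1* also passed with 2 other filters. No gene was called against WT (0.0%; 1249 genes at an unadjusted p under 0.05, 230 called by DESeq2) and 2 of 12351 genes (0.0162%), neither of them of the loop, were called against KO. Against WT 2 of 10 genes separated the groups (18.6% of genes) and against KO 6 of 10 (10.9%). Against KO, *Nr1d1*, *Per1*, *Per2* and *Cry2* were higher in HepKO. *Arntl* (-0.20 ± 0.12) and *Cry1* (-0.32 ± 0.15) were lower, but the groups nearly touched. The nearest HepKO and KO libraries both stood at 24.26 CPM for *Arntl*, and at 9.654 and 9.672 CPM for *Cry1*. Both comparisons share the HepKO libraries.

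**Figure D3:**
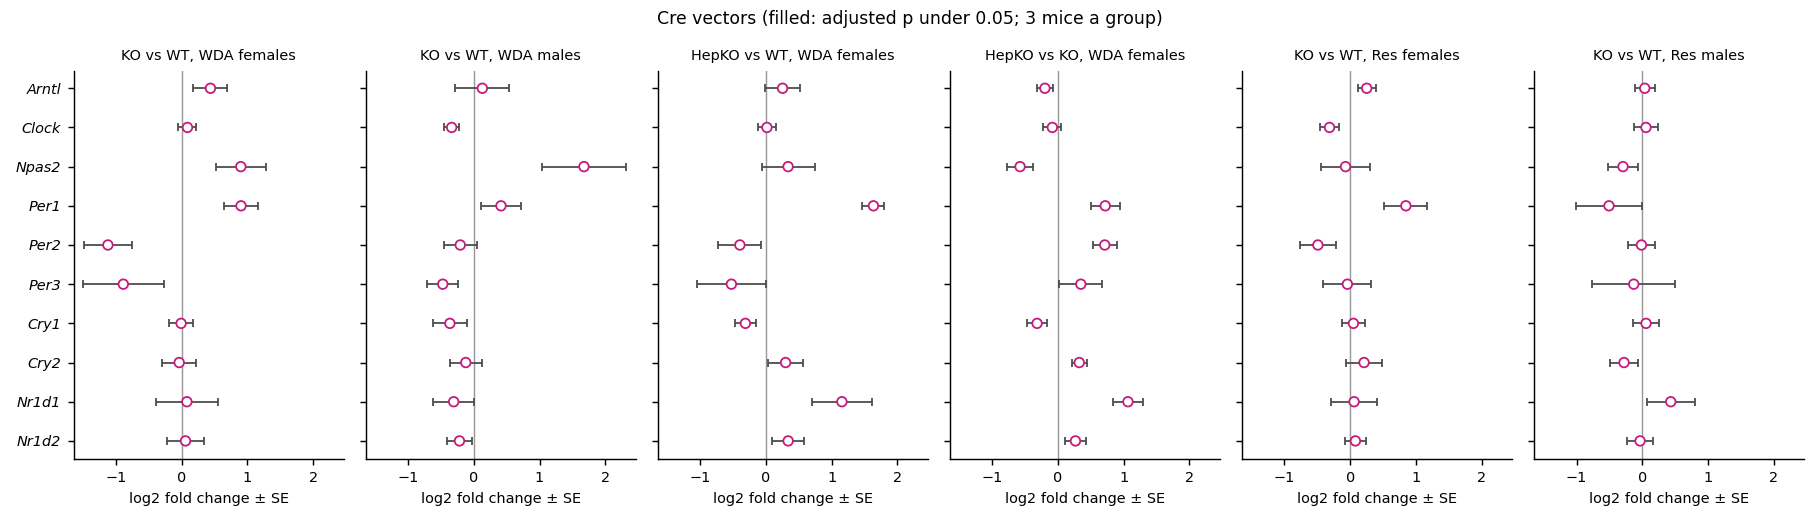
Log2 fold change with its SE for the 10 genes in 6 comparisons of vectors, 3 mice a group; no point is filled because none passed an adjusted p of 0.05. The value farthest from 0 on the right with a small SE is *Per1* in HepKO against WT, 1.64 ± 0.17.

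The mice of 1 group differed among themselves in most genes of the loop. The SD of log2 CPM within groups was 0.77 for *Per3*, 0.61 for *Nr1d1*, 0.59 for *Npas2* and 0.58 for *Per1*, against a median of 0.26 over 13534 genes. Among genes of like level, within 0.5 on the log2 scale, *Nr1d1* was more variable than 97.8% and *Per1* than 97.0%. *Clock*, with 0.19, was more variable than 47.3%, and *Cry1*, with 0.26, than 69.9%. WT WDA female 6 is an example: it had 92.3 CPM of *Nr1d1*, 18 CPM of *Per2* and 10.4 CPM of *Per3*, the highest of its group in each, and 11.1 CPM of *Arntl* and 4.07 CPM of *Npas2*, the lowest of its group.

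The position of each library along the loop was summarised as the mean log2 CPM of *Arntl*, *Npas2* and *Clock* minus that of *Nr1d1*, *Nr1d2* and *Per3*. The index was lowest in WT WDA males, -2.28 ± 0.41 (SD, n = 3), and KO WDA males, -1.55 ± 0.99. It was -0.23 ± 0.27 in HepKO, 0.01 ± 1.20 in WT and 0.68 ± 0.30 in KO females on WDA. In Res it was 0.72 ± 0.77 in WT females, 0.60 ± 0.24 in KO females, 1.08 ± 0.57 in WT males and 0.95 ± 0.86 in KO males, and the 4 Res means lay closer to each other than their largest SD. The index is a description and has no test. Mice of 1 group lay up to 2.21 apart (WT WDA females, from -1.36 to 0.85) and in WDA males KO mouse 17 stood at -0.42 against -1.97 and -2.27 for the other two.

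**Figure D4:**
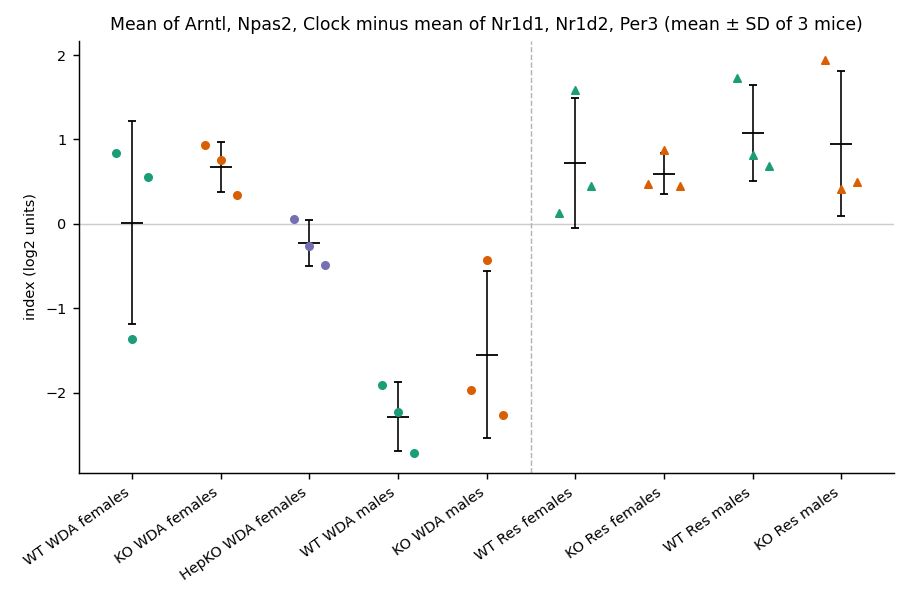
The index for every library by group, with the mean and SD of 3 mice; a low value means that the mean of *Nr1d1*, *Nr1d2* and *Per3* was high relative to that of *Arntl*, *Npas2* and *Clock*. WDA males lie between -2.72 and -0.42 and all 12 Res libraries lie above 0.

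Within groups, the gene of the loop that followed *Arntl* most closely was *Npas2*. Its slope on the log2 CPM of *Arntl*, centred within the 9 groups, was 1.35 ± 0.24 (27 libraries, adjusted p = 0.0711), and it had its highest value in the library with the highest *Arntl* in 7 of 9 groups. Without KO WDA male 17, the library with the highest cholangiocyte markers, the slope of *Npas2* was 1.26 with an adjusted p of 1.0. Without the 6 libraries it was 1.43, also with an adjusted p of 1.0, and no gene was called. Markers of other cells moved with *Arntl* within groups, since all 5 cholangiocyte, all 6 stellate and scar and all 5 blood and immune markers had slopes above 0 (medians 1.62, 1.13 and 0.71, against 0.03 over all genes) and none of the 6 hepatocyte markers did (median -0.26). None of these markers passed the test, and their part in the slope was not tested. *Per2* (-0.66 ± 0.17) and *Nr1d2* (-0.49 ± 0.15) had slopes below 0, both with an adjusted p of 0.271. *Nr1d1* had -0.58 ± 0.34 and *Clock* -0.05 ± 0.12. No gene of the loop passed, and 1 of 13533 genes (0.00739%) did. In the 15 WDA libraries alone the slope of *Npas2* passed the test (1.43 ± 0.17, adjusted p = 0.0145), and in the 12 Res libraries alone it did not. As a description, genes outside the loop were ordered by Pearson's r with *Arntl* within groups, over the 27 libraries, which were scaled together. The most alike were *Cdkn1a* (0.84), *Dtx4* (0.80), *Tab2* (0.75), *Sowahb* (0.74) and *Cog3* (0.73). The most opposite were *Enpp2* (-0.77), *Fdx1* (-0.73), *Cobll1* (-0.73), *Dbp* (-0.72) and *Lipg* (-0.72). *Dbp* is a direct output of the loop.

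**Figure D5:**
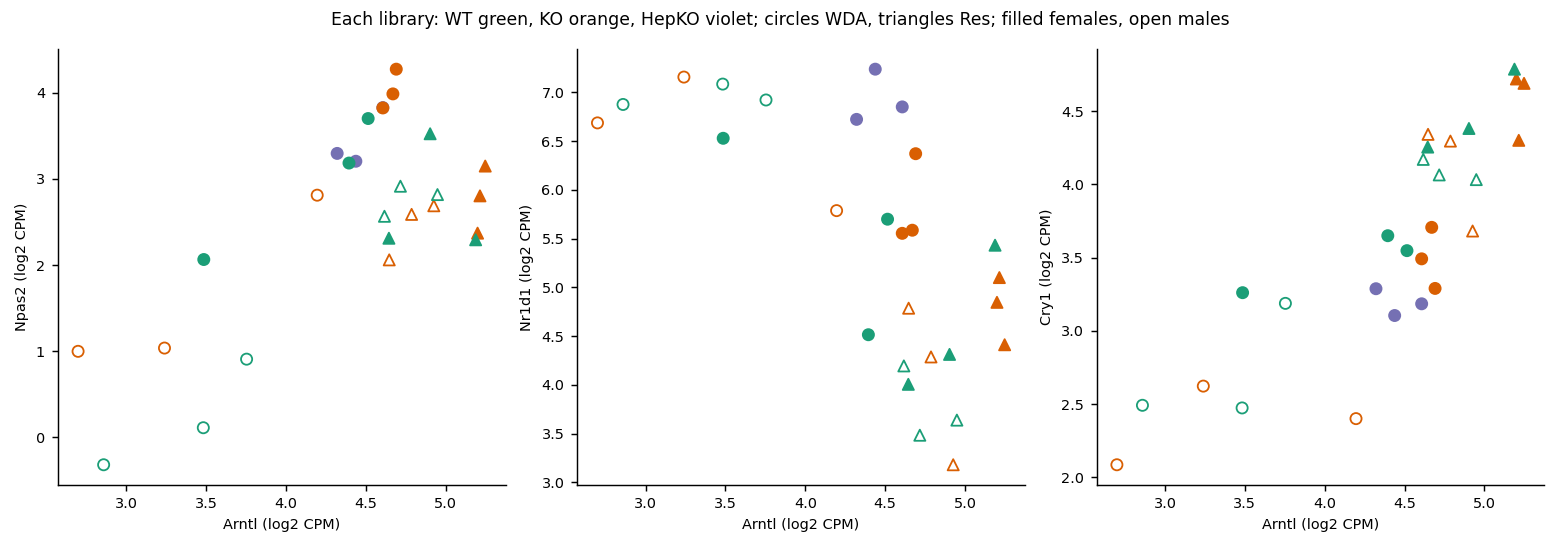
Log2 CPM of *Npas2*, *Nr1d1* and *Cry1* against that of *Arntl*, 1 point for each library. Circles are WDA and triangles Res libraries, filled females and open males, green WT, orange KO and violet HepKO. *Npas2* reached 0.689 to 6.91 CPM in WDA males (open circles), with *Arntl* at 6.38 to 18.2 CPM.

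Other genes of the pathway were counted for stage too, beside 11.0% of all genes called in WT males and 20.4% in KO females. Of the outputs of the loop, which its factors switch on or off, 8 were tested. In WT males 2 rose and 4 fell, with *Dbp*, an activator at D-boxes, at -4.21 ± 0.25 (adjusted p = 0.000367), *Usp2*, a deubiquitinase, at -1.35 ± 0.35 (adjusted p = 0.0459) and *Nfil3*, a repressor at D-boxes, at 1.29 ± 0.09 (adjusted p = 0.000741). In KO females 6 rose and none fell, with *Ciart*, a repressor of the ARNTL pair, at 3.27 ± 0.28, *Usp2* at 1.32 ± 0.34 and *Wee1*, a cell cycle kinase, at 1.28 ± 0.25. So *Usp2* fell in WT males and rose in KO females, strata that differ in both sex and vector. The median log2 fold change of the 8 outputs was -0.80 and 1.04 in these strata, against 0.02 and 0.01 over all genes, and 0.34 and -0.74 in WT females and KO males, where none was called. *Ciart* (2.86 ± 0.20, adjusted p = 0.00117) and *Dbp* (1.85 ± 0.20, adjusted p = 0.0328) were the 2 genes called in HepKO against KO females. Among the loop partners, *Bhlhe41* fell (-1.99 ± 0.35) in WT males and *Bhlhe40* rose (1.18 ± 0.34) in KO females. Of the 19 kinases, ligases and co-regulators, 1 rose in WT males (*Wdr5*, 0.38 ± 0.09), and in KO females 5 rose and 1 fell, among them *Csnk1e*, a kinase of PER proteins (1.02 ± 0.16), *Sirt1* (0.55 ± 0.15) and *Kdm5c* (-0.49 ± 0.15). The count of 1 in 19 in WT males is under the share of all genes called there.

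Lists of genes that answer to cues able to set the clock were measured in the same libraries. Of 5 glucocorticoid genes, 3 rose in KO females and 1 in WT males from WDA to Res, and their summed level was 3604 to 5100 CPM in KO Res females against 998 to 2570 CPM in KO WDA females. The summed level was 1877 to 2866 CPM in HepKO females and 979 to 1823 CPM in WT WDA females. Of 7 temperature genes 4 fell and 1 rose in WT males, with 2200 to 2731 CPM in WDA and 979 to 1256 CPM in Res. In KO females 2 of the 6 tested fell and 1 rose. Their summed levels overlapped there, at 1219 to 1992 CPM in WDA and 1080 to 1501 CPM in Res. Of 8 feeding and fasting genes 1 rose and 1 fell in WT males and 1 rose in KO females, where 1 in 8 is under the 20.4% of all genes called. The part of these cues, and of the time of collection, in the clock differences was not tested.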

How the data were processed

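Whole-liver RNA of 27 mice was sequenced on a BGISEQ instrument. Per the labels, the submitters' notes name HISAT, Bowtie2 and GRCm38.p6, and the tool that gave the counts is not given in the sources used here. The authors deposited, for each gene and library, an FPKM value and an unscaled expected count. Of the expected counts, 7.34% to 8.09% were not whole, and all were rounded. FPKM served only to order genes by level. Genes were listed in 4 tables and genes absent from 1 table were set to 0 there.

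Groups came from the labels. The main test was edgeR 4.0.16 (R 4.3.3, limma 3.58.1): filterByExpr with a minimum count of 10, TMM scaling, quasi-likelihood fits of each comparison's own groups, and Benjamini-Hochberg adjustment over all genes tested at 0.05. SEs were derived from the F statistic. CPM used TMM scaling and log2 CPM a prior count of 2. The slope fit used 27 libraries with the group as a factor. Each library is 1 mouse, and 3 mice a group limit the precision. No 2 libraries of a group were as alike as sampling noise.

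Named genes were all 10 members, up to 3 called genes of each list of other clock genes with the largest change, and the 5 highest and 5 lowest Pearson's r with *Arntl* among genes with a mean log2 CPM of at least 2. The members and lists were chosen with earlier results of these data known. Alternatives were RLE scaling, library totals, DESeq2 1.42.0, no filter, at least 10 counts in every library, a spread shared by 9 groups, a replicate block, single stages, and leaving out each mouse. Leaving out the libraries with summed cholangiocyte markers over 100 CPM was added after seeing the data. That cut took 6 libraries where 5 had been expected, and a second cut at 150 CPM, which takes 5, was then added and both are given. Promoters were read from the RefSeq table of GRCm38.p6. The test scripts were tested on simulated data. The result of 1 other clock gene is not reported here.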

Additional observations from a re-analysis of the deposited data

Results flagged for a closer look

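*Per2* differed in the direction of its stage difference between KO females and KO males. In KO females its log2 fold change of Res against WDA was 0.58 ± 0.18 (edgeR, adjusted p = 0.0497, under the threshold in 1 of the 6 fits that left out a mouse), with every Res library (7.95 to 8.43 CPM) above every WDA library (4.37 to 6.64 CPM). In KO males it was -0.52 ± 0.24 and did not pass (adjusted p = 0.774), with every Res library (7.36 to 9.43 CPM) below every WDA library (9.81 to 16.2 CPM). Of those libraries of KO males, WDA 17 and 18 and Res 5 had cholangiocyte markers over 100 CPM. Without the libraries over 100 CPM, which leaves 1 WDA library, the log2 fold change of *Per2* in KO males was -0.33 (adjusted p = 1.0), and without those over 150 CPM it was -0.74 (adjusted p = 0.507). The difference between the sexes was not tested in KO mice.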

How the results depend on the processing

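Of 20 tests, the number of clock genes called stayed within 1.5 times of the main count under RLE scaling in every one. DESeq2 called more in WT females (2) and KO males (3) for Res against WDA, and 1 each in HepKO against WT, HepKO against KO, WT males against females on WDA, stage by sex in WT and the slope. In that order, DESeq2 called 403, 79, 230, 38, 548, 84 and 17 genes in all. In WT males DESeq2 called 7 against 5, adding *Per2* and *Per3*, and 1724 genes in all against 1360. A shared spread called 2 in WT females, 4 in KO males, 1 in males against females on WDA, and 2 in place of 6 in KO females. Over all genes it called 840, 102, 349 and 1558 in these comparisons. Without a filter and with at least 10 counts in every library, 1 was called in HepKO against WT (7 and 8 genes in all). The slope gave 2 with library totals, which called 6976 of all genes against 1, and 1 in WDA alone. Without the 6 libraries over 100 CPM of cholangiocyte markers, 2 were called in KO males for stage, against 0 without the 5 over 150 CPM. Both cuts called 1 in HepKO against WT (349 genes in all) and 1 in males against females on WDA (1039 genes in all). Leaving out each mouse gave 4 to 7 for stage in WT males, 4 to 6 in KO females, 0 to 1 in KO males (without KO WDA male 17), 0 to 1 in HepKO against WT (without WT female 7), 0 to 1 in HepKO against KO (without KO female 1), 0 to 1 in males against females on WDA (without WT female 6 or 7) and 0 to 2 for the slope (2 without WT WDA female 5, 1 without WT Res female 1 or 12). With a replicate block in KO females, whose numbers 2 and 3 recur in both stages for different mice, 5 clock genes were called against 6 without it, and 1701 genes in all against 2550; the numbers are not a pairing. No called gene changed direction under any of these alternatives. The group means of the index moved by less than 1 SD with a prior count of 0.5 and with library totals. Leaving out 1 of 3 mice cannot move a mean by 1 SD, so those fits say nothing on how stable the index is. The causes were not tested. The 3 mice a group and the low counts of *Npas2* in WDA males limit these values.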
